A study of Mus musculus with 2 samples.

Results

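Intrinsic airway neurons and the Schwann cells beside them were followed through 7 genes known from neural crest derived neurons and glia: Prph, Ret, Elavl4, Tubb3, Stmn2, Fabp7 and Gfra1. The genes were taken by name from the 43346 gene rows of each library, and all 7 were found once in both. The study measured total RNA of mouse lung at embryonic day 16.5 in a single group of 2 libraries, numbered as biological replicates. The mice were of strain B6NCrl, and each library came from lungs of male and female embryos pooled together. Replicate 2 holds 41 embryos, while no number is stated for replicate 1. No allele, treatment or second time point is part of the series, so the only contrast is between the pools. A pool of whole lungs averages over embryos and cell types. In such RNA, fewer cells of a type and less RNA per cell cannot be told apart.

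Airway neurons form from neural crest cells that enter the lung along the vagus nerve and settle in ganglia on the airway smooth muscle, with Schwann cell precursors along the same nerves. The receptor tyrosine kinase RET guides such cells. It does not bind its ligands alone: GDNF binds GFRA1, a co-receptor tethered to the cell surface, and the complex activates RET. Of the other genes, Tubb3 (a neuronal beta tubulin), Stmn2 (a growth cone regulator of microtubules) and Prph (peripherin, an intermediate filament of peripheral neurons) build the axon, Elavl4 encodes the neuronal RNA-binding protein HuD, and Fabp7 encodes the brain fatty acid binding protein, a marker of Schwann cell precursors and radial glia.

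The RNA of Ret, Gfra1 and Prph was divided between splice forms that code for different proteins. The forms differ in the stretches printed here, all coding sequence of GENCODE M21 transcripts on mm10, 5′ to 3′ along the RNA. The capitals mark the bases that only 1 form of each pair has.

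Both Ret transcripts share their coding sequence up to the last lower case base and then end in different ways. The capitals of Ret-202 lie at chr6:118155256-118155287 and those of Ret-201 at chr6:118153853-118154010, both on the minus strand, and include the stop codon. Ret-202 is the form with the short tail and Ret-201 the form with the long tail, which carries a further tyrosine for binding of signalling proteins.
Ret-202: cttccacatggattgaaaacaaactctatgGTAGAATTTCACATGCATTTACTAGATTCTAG
Ret-201: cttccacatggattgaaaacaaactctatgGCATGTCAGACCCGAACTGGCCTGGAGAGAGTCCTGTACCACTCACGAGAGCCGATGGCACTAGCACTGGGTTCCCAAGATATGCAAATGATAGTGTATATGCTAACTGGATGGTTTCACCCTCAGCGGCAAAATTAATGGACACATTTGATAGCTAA

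Gfra1-201 has an exon of 15 bases at chr19:58392573-58392587 (minus strand) that Gfra1-203 skips. The exon is shown because forms with and without it were both present.
Gfra1-201: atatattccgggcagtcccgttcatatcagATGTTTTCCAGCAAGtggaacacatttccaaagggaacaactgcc
Gfra1-203: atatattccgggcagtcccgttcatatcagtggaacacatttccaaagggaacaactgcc

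Prph-202 keeps 96 bases at chr15:99056937-99057032 (plus strand) that are spliced out as an intron in Prph-201. The annotation reads through the kept bases as coding sequence, and their number is a multiple of 3.
Prph-202: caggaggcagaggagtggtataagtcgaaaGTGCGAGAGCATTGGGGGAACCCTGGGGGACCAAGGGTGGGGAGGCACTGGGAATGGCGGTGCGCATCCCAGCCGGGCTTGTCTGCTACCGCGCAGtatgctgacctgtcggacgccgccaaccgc
Prph-201: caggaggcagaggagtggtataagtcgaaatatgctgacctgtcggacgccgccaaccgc

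Levels are given as TPM, a share of the library's transcripts that divides reads by transcript length and so allows genes to be set side by side. The libraries held 38852470 and 27145411 expected counts, the authors' estimates of reads per gene, and the 7 genes took 2033 and 1680 of them. At 1 TPM or more in both replicates stood 6 of the 7 genes, against 61.5% of 21474 protein coding genes. Their summed level was 39.9 TPM in the first library and 49.58 TPM in the second. Stmn2 and Fabp7 together made 56.5% and 55.2% of that sum.

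The cytoskeletal genes came first. Stmn2 (chr3:8509360-8561606, plus strand) was the highest of the 7, with 12.57 TPM in the first replicate and 14.73 TPM in the second. Its mean of 13.7 ± 1.53 TPM (SD, n = 2) lay above the mean of 63.6% of protein coding genes. The level rested on 630 and 541 reads, and the 95% counting intervals (exact Poisson) of 11.6 to 13.6 TPM and 13.5 to 16.0 TPM overlapped narrowly. These intervals treat expected counts as reads and cover counting error only.

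Tubb3 (chr8:123411424-123422015, plus strand) stood at 4.87 TPM in the first and 9.18 TPM in the second replicate, from 225 and 301 reads. Replicate 2 was the higher, by 1.89-fold, and Tubb3 was the only one of the 7 genes whose counting intervals did not overlap, at 4.25 to 5.55 TPM and 8.17 to 10.3 TPM. Its mean of 7.03 ± 3.05 TPM (SD, n = 2) therefore has the widest relative spread of the set.

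Prph (chr15:99055174-99058978, plus strand) was nearly level between the pools, with 3.28 TPM in the first and 3.50 TPM in the second. It rested on 144 and 110 reads, with a mean of 3.39 ± 0.156 TPM (SD, n = 2). Peripherin RNA was thus a little below the median of protein coding genes, 46.4% of which had a lower mean.

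Elavl4 (chr4:110203722-110351909, minus strand), the RNA-binding protein gene, stood at 2.51 TPM in the first and 2.31 TPM in the second pool. With 98 and 63 reads it had the fewest reads of the set, and its counting intervals of 2.03 to 3.05 TPM and 1.78 to 2.96 TPM covered each other's values.

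Ret (chr6:118151745-118197718, minus strand), the receptor, was the lowest of the 7 and the only one under 1 TPM, with 0.93 TPM in the first and 0.65 TPM in the second pool. Its transcripts are long, so this low level still rested on 167 and 83 reads. The counting intervals of 0.797 to 1.09 TPM and 0.519 to 0.807 TPM overlapped at their edges. The mean of 0.790 ± 0.198 TPM (SD, n = 2) lay above that of 35.9% of protein coding genes.

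Gfra1 (chr19:58235604-58455909, minus strand), the co-receptor, stood at 5.75 TPM in the first and 6.58 TPM in the second pool, from 584 and 417 expected counts. The mean was 6.17 ± 0.587 TPM (SD, n = 2), and the counting intervals of 5.29 to 6.23 TPM and 5.96 to 7.24 TPM overlapped. A second estimate by the authors, the posterior mean, was 6.67 and 7.55 TPM, above these intervals in both libraries. The intervals thus understate the uncertainty of Gfra1. Gfra1 was also the only one of the 7 genes whose expected counts were not whole, to within 0.001, in both libraries. Its annotated span overlaps by 444 bases the antisense gene Gm16277, which took 12.58 and 5.1 counts, and the part of that overlap in the fractional counts was not tested. Of the 100-base windows of its leading transcript, 7.41% occur in Gm16277 on the opposite strand. The leading transcripts of the other 6 genes share no such window with another gene. These windows are of GENCODE M21 transcripts, while the counts were made on GENCODE M4. The strand setting is not given in the sources used here.

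Fabp7 (chr10:57784881-57788450, plus strand), the glial gene, was second of the 7, with 9.99 TPM in the first and 12.63 TPM in the second pool. Because its transcript is short, this level rested on only 185 and 165 reads. The counting intervals of 8.60 to 11.5 TPM and 10.8 to 14.7 TPM overlapped, and the mean was 11.3 ± 1.87 TPM (SD, n = 2).

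**Figure D1:**
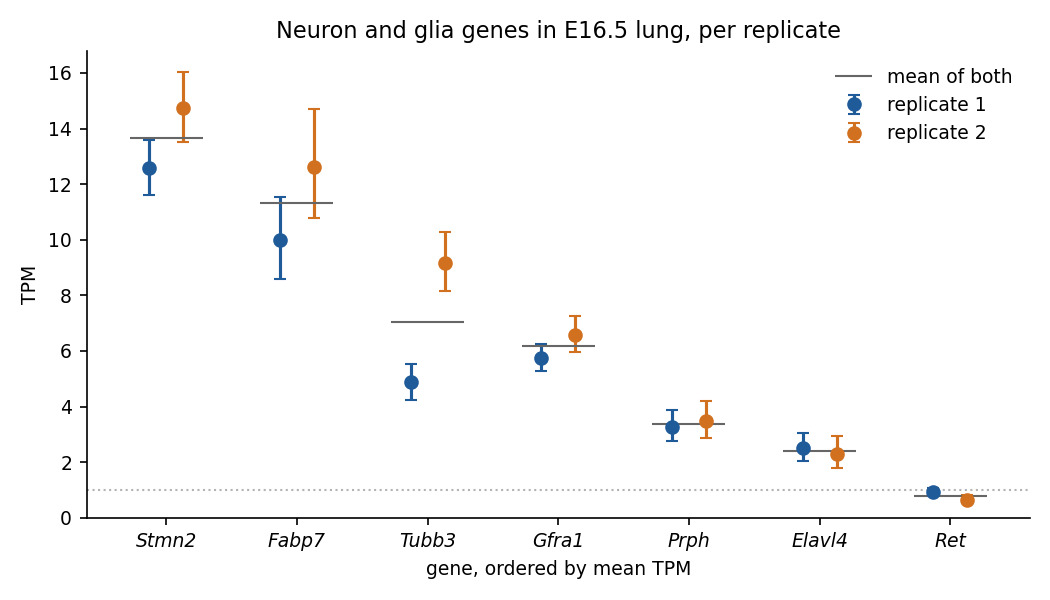
TPM (vertical axis) of the 7 genes (horizontal axis) in each replicate, with 95% counting intervals as bars, the mean of both as a line and 1 TPM dotted. Stmn2 and Fabp7 lead, the bars of Tubb3 (4.87 and 9.18 TPM) stand apart, and Ret (0.93 and 0.65 TPM) lies under the dotted line.

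The order of the genes was read from the log2 ratio of TPM within each library, which cancels the library's scaling. An order was taken to hold where the sign was the same in both libraries and the mean ratio exceeded 2 SD. Of the 21 pairs of genes 18 held, and the 3 that did not all involved Tubb3. Stmn2 exceeded Fabp7 by 0.28 ± 0.08 (mean log2 ratio ± SD, n = 2), the smallest ratio that held. The rule leaves out counting error. The counting intervals of Stmn2 and Fabp7 overlapped in replicate 2 (13.5 to 16.0 TPM and 10.8 to 14.7 TPM), and those of Prph and Elavl4 overlapped in both libraries. By this rule Tubb3 could be placed neither below Fabp7 nor above Gfra1 or Prph. Only against Gfra1 did the sign change: Tubb3 was lower in replicate 1 (log2 ratio -0.24) and higher in replicate 2 (log2 ratio 0.48). Fabp7 exceeded Tubb3 in both libraries (log2 ratios 1.04 and 0.46), and Tubb3 exceeded Prph in both (0.57 and 1.39). Those 2 pairs failed only the part of the rule on 2 SD. Gfra1 exceeded Prph by 0.86 ± 0.07, Prph exceeded Elavl4 by 0.49 ± 0.15 and Elavl4 exceeded Ret by 1.63 ± 0.28. The whole range, from Ret to Stmn2, was a 17.5-fold difference in TPM. The step between Elavl4 and Ret depends on the division by length, since Ret had the more reads of the pair in both libraries.

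Among the receptors of the GDNF family, Ret was below Gfra1, Gfra2 and Gfra4 in both libraries, while Gfra3 was near it. Gfra1 exceeded Ret 7.91-fold (log2 ratio of Ret over Gfra1 -2.98 ± 0.50, SD, n = 2). All 4 co-receptor genes together summed to 35.04 TPM in the first library and 32.98 TPM in the second, of which Gfra1 made 16.4% and 20.0%. The highest was Gfra2, the co-receptor of neurturin, at 20.37 and 18.76 TPM. Gfra4, that of persephin, stood at 7.83 and 6.90 TPM. Gfra3, that of artemin, stood at 1.09 and 0.74 TPM, beside Ret. Gfra1 was thus lower than Gfra2 in both libraries, with a log2 ratio of -1.67 ± 0.22, and higher than Gfra3, with a log2 ratio of 2.78 ± 0.53. Ncam1, an adhesion molecule that can bind GDNF with GFRA1 in the absence of RET, stood at 17.76 and 19.03 TPM.

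The ligand of Gfra1 and Ret was barely detected. Gdnf had 1 read in replicate 1 and 10 reads in replicate 2, or 0.01 and 0.16 TPM, and the first lies below the 0.034 TPM that 3 reads would give. Pspn (persephin) had 2 reads and none, and a count of 0 in replicate 2 allows up to 0.432 TPM. The ligands of the other co-receptors were measured well above that. Nrtn (neurturin) stood at 6.09 and 4.26 TPM, and Artn (artemin) at 2.68 and 3.07 TPM. Both exceeded Gdnf in each library. Of the 10 genes of the family list, which includes Ret and Gfra1, 6 reached 1 TPM in both replicates. This share of 60.0% is near the 61.5% of protein coding genes and is no result about the family. None of the 6 differed 2-fold between the pools in log2(TPM + 1), which is near the share of 2.67% over all genes compared and is no result about the family.

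A second signal for crest cells, endothelin 3, acts through the endothelin B receptor and is released from its precursor by the enzyme ECE1. All 3 genes were high beside Ret and Gfra1: Ednrb stood at 127.32 and 123.74 TPM, Edn3 at 40.15 and 43.53 TPM, and Ece1 at 45.05 and 40.20 TPM. Ednrb exceeded Edn3 by a log2 ratio of 1.59 ± 0.11 (SD, n = 2). Which cells of the lung held these RNAs was not measured.

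**Figure D2:**
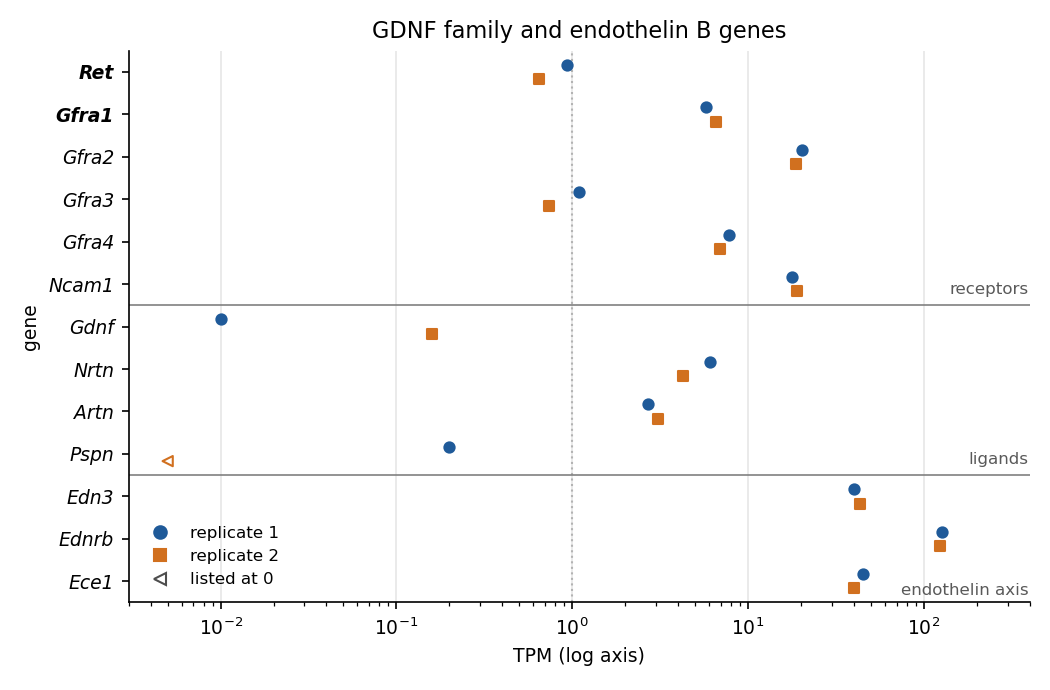
TPM (horizontal log axis, 1 TPM dotted) of the GDNF family receptors and ligands and the endothelin genes in replicate 1 (circles) and replicate 2 (squares), with an open triangle for a value listed at 0. Ret (bold) lies left of Gfra1 (bold), Gfra2 and Gfra4, and Gdnf lies at 0.01 and 0.16 TPM.

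The division of each gene's RNA between its transcripts, as a percentage of the gene's TPM, was estimated by the authors. Ret was held by both forms at a steady ratio. Ret-202, with the short tail, made 69.4% of the gene in replicate 1 and 71.6% in replicate 2, and Ret-201, with the long tail, made 30.6% and 28.4%. The short form had 122.51 and 62.59 expected counts and the long form 44.49 and 20.41. The deposited tables give both forms a longer transcript than GENCODE M21 does (7341 against 4497 bases for Ret-202, and 6064 against 5456 bases for Ret-201), and the shares follow the deposited lengths.

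Gfra1 was led by the form without the 15-base exon. Gfra1-203 made 54.6% in replicate 1 and 50.6% in replicate 2. The forms with the exon, Gfra1-201 and Gfra1-209, together made 33.93% and 28.34%. Within that sum the forms traded places: Gfra1-201 made 27.2% and 12.1% of the gene, and Gfra1-209 made 6.74% and 16.3%. The summed share moved less between the libraries than either form. A short transcript, Gfra1-204, made 11.5% and 13.8% from only 12.81 and 12.49 expected counts.

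Prph was held mainly by the fully spliced form. Prph-201 made 89.8% in replicate 1 and 73.1% in replicate 2, and Prph-202, which keeps the 96 bases, made 10.2% and 26.9%. The share of Prph-202 was thus the higher in replicate 2, beside gene levels of 3.28 and 3.50 TPM. It rested on 15.43 and 30.8 expected counts.

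Stmn2, Fabp7 and Tubb3 each had a single dominant form. Stmn2-201 made 96.0% and 99.4%, Fabp7-201 made 95.5% and 100% and Tubb3-201 is the only transcript of its gene in the tables. Elavl4 was the opposite case. Its 98 and 63 reads were spread over 12 annotated transcripts, of which only 3 were above 0 in both libraries. The leading one, Elavl4-211, is a short transcript annotated without a coding sequence, and it made 38.9% and 39.2%. Elavl4-210 made 28.4% in replicate 1 and 0% in replicate 2, and Elavl4-208 made 5.10% and 35.9%. A full-length coding form, Elavl4-202, made 10.5% and 10.2%. The forms of Elavl4 were not separable at this depth, whereas in the other 6 genes a transcript of at least 50% led in both libraries.

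**Figure D3:**
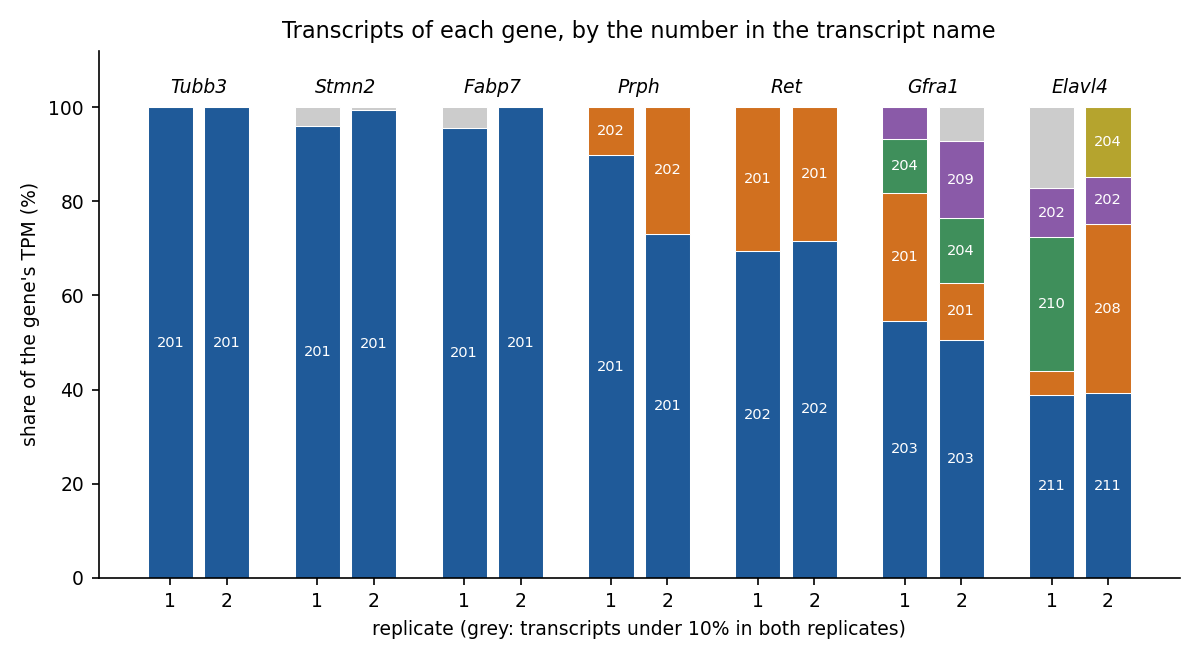
Share of each gene's TPM (vertical axis, %) held by its transcripts in replicates 1 and 2 (horizontal axis), each block named by the number in the transcript's name. Ret kept 69.4% and 71.6% in form 202, Prph form 202 stood at 10.2% and 26.9%, and the blocks of Elavl4 changed between the replicates.

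Each neuronal or glial gene belongs to a family with members that most cells use, and in each family the member followed here was a small part of the sum. Tubb3 stood at 7.03 TPM against 762 TPM for Tubb5, a 114-fold difference (log2 ratio -6.83 ± 0.72, SD, n = 2). All 8 beta tubulin genes were at 1 TPM or more, and Tubb3 was also below Tubb2b, at 17.20 and 19.34 TPM. Only Tubb1, the beta tubulin of platelets, lay in its range, at 5.65 and 4.71 TPM.

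Stmn2 was 104-fold below Stmn1, the stathmin of dividing cells, which stood at 1451 and 1371 TPM. Within the neuronal stathmins it was the highest: it exceeded Stmn3 (4.06 and 7.81 TPM) by a log2 ratio of 1.27 ± 0.51 (SD, n = 2), and Stmn4 stood at 2.30 and 2.44 TPM. Its level was not separable from that of Gap43, another growth cone gene, at 13.32 and 17.24 TPM (log2 ratio -0.16 ± 0.10).

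Elavl4 stood 24.8-fold below Elavl1, the family member found in most cells, at 62.73 and 56.89 TPM. Its order with Elavl2, at 2.60 and 2.55 TPM, did not hold by the rule on 2 SD, with a log2 ratio of -0.10 ± 0.06. Elavl3, a marker of differentiated neurons, had only 12 and 27 reads, or 0.09 and 0.30 TPM, and lay below Elavl4 in both libraries.

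Prph was 236-fold below Vim, the type III filament of mesenchyme, at 819 and 780 TPM, and below Des of muscle, at 47.84 and 53.36 TPM. Against the neurofilament genes it was of like size. Nefl stood at 4.08 and 3.68 TPM, with a log2 ratio of Prph over Nefl of -0.19 ± 0.17 (SD, n = 2) that did not hold. Nefm stood at 2.12 and 2.52 TPM and was lower than Prph, by 0.55 ± 0.11.

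Fabp7 was 17.6-fold below Fabp5, which stood at 180.19 and 217.37 TPM, and it was also below Fabp3 and Fabp4. Fabp1 (0.59 and 4.28 TPM) and Fabp6 (0.20 and 2.70 TPM), the forms of liver and ileum, were past 2-fold higher in replicate 2, while Fabp7 differed by 1.26-fold. Fabp9 had no read in either library, which allows up to 0.243 and 0.342 TPM.

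**Figure D4:**
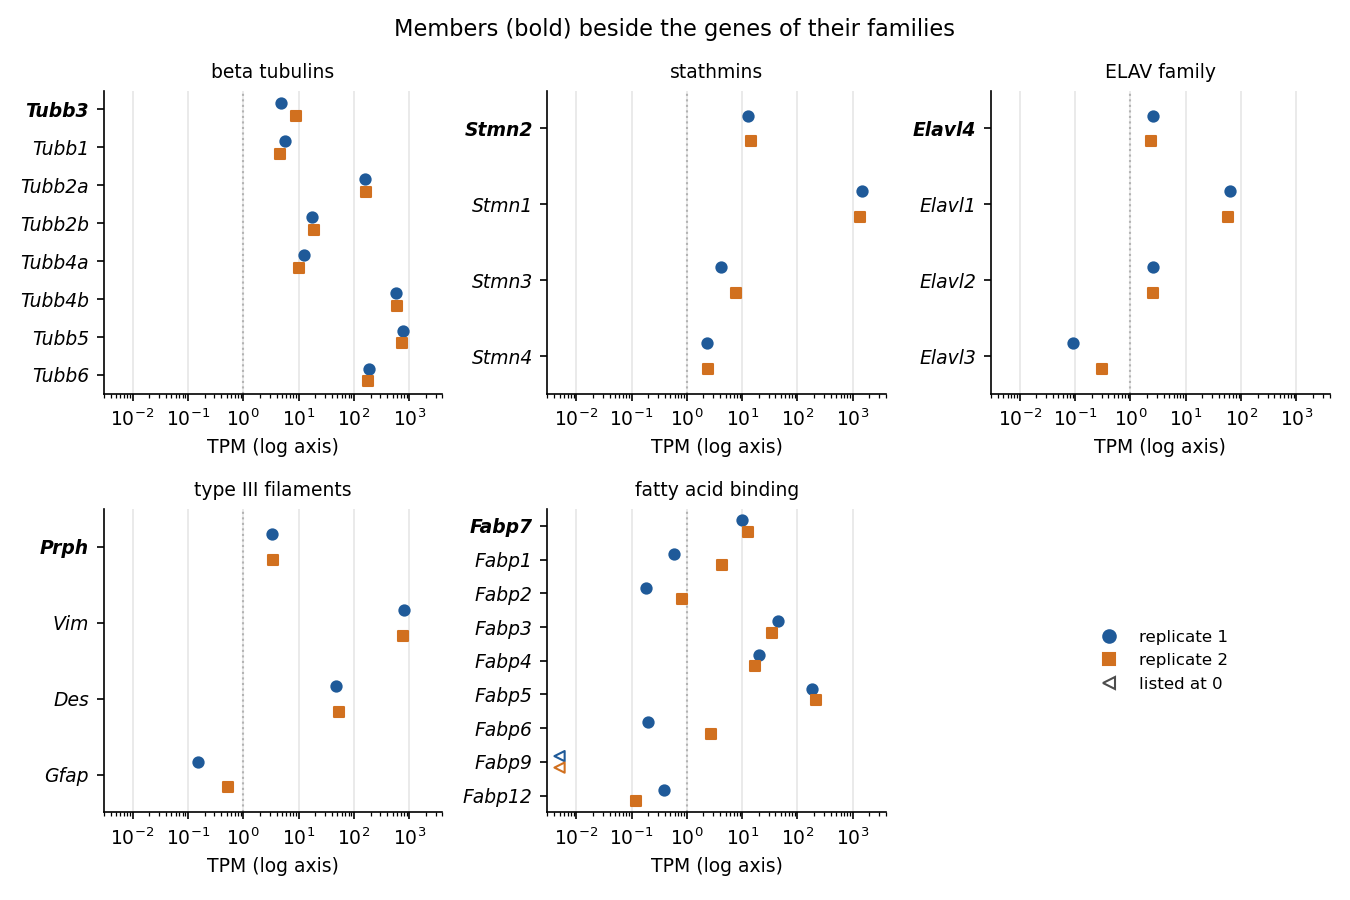
TPM (horizontal log axis, 1 TPM dotted) of 5 gene families in replicate 1 (circles) and replicate 2 (squares), the followed gene in bold and open triangles for values listed at 0. Stmn1, Tubb5, Vim, Elavl1 and Fabp5 lie far to the right of Stmn2, Tubb3, Prph, Elavl4 and Fabp7.

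Genes that define the same cells were read beside the set. Of 12 transcription factors of neural crest and autonomic neurons, 2, or 16.7%, reached 1 TPM in both replicates, against 61.5% of protein coding genes. The list's median was 0.54 and 0.38 TPM, against 4.71 and 5.02 TPM over protein coding genes. Those 2 were Gata3 (4.19 and 4.49 TPM) and Isl1 (1.66 and 2.65 TPM).

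The glial marker Sox10, required for all peripheral glia, stood at 0.69 and 0.56 TPM from 47 and 27 reads, and Fabp7 exceeded it 18.1-fold (log2 ratio 4.18 ± 0.45, SD, n = 2). Fabp7 lay below Erbb3, the neuregulin receptor of these cells, with a log2 ratio of -1.02 ± 0.27. Erbb3 stood at 23.18 and 22.49 TPM. Of the 18 genes on the Schwann cell list 10, or 55.6%, reached 1 TPM in both replicates. That is near the 61.5% of protein coding genes and is no result about the list. Its highest members, Pmp22 (250.23 and 261.26 TPM), Ednrb, Erbb3 and Mal (17.72 and 24.93 TPM), are also known from other cells of the lung, so the list's sum is not a measure of glia. Sox10, which defines the glia, was thus detected in both libraries at levels under 1 TPM, and the RNA of whole lung does not show which cells held the 7 genes.

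A further 3 lists hold other neuronal genes, to be read against the 61.5% of protein coding genes that reached 1 TPM in both replicates. On the list of neuronal cytoskeleton and growth cone genes, which includes Tubb3, Prph and Stmn2, 16 of 18 reached 1 TPM in both replicates. Its highest members were Uchl1 (47.88 and 44.90 TPM), Dpysl3 (30.10 and 30.95 TPM), Map1b (20.03 and 18.00 TPM) and Gap43, and Tubb3 lay 6.93-fold below Uchl1. Of 9 neuronal RNA-binding protein genes 4 reached that level, namely Celf4 (3.37 and 3.49 TPM), Elavl2, Elavl4 and Rbfox1 (1.02 and 2.14 TPM). Of 14 genes of synaptic vesicles and secretory granules 6 reached it, led by Vamp2 (71.29 and 67.30 TPM) and Stx1a (9.87 and 10.06 TPM), with Syp at 2.21 and 2.65 TPM and Sv2a at 2.20 and 1.92 TPM.

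Between the pools, none of the 6 genes compared (all but Ret, whose mean is under 1 TPM) differed by 2-fold or more in log2(TPM + 1). Over all 15493 genes compared, 413, or 2.67%, did: 298 were higher and 115 lower in replicate 2. A count of 0 in 6 is near that background and is no result about these genes. In 5 of the 6 the level was higher in replicate 2, beside 50.2% of all genes compared. The exception was Elavl4, lower in replicate 2 with a difference of -0.08 in log2(TPM + 1). The authors' second estimate, the posterior mean, put Elavl4 at 2.77 and 2.86 TPM, slightly higher in replicate 2. Under every other scaling and pseudocount run Elavl4 stayed lower in replicate 2. Ret, outside this count, was also lower there, at 0.93 and 0.65 TPM. Tubb3 differed most, by 0.79 in log2(TPM + 1), against an SD of 0.53 over the 6238 genes between 1 and 10 TPM. Fabp7 differed by 0.31 and Stmn2 by 0.21, against an SD of 0.24 over the 7597 genes between 10 and 100 TPM. Without Tubb3 the summed level of the other 6 genes was 35.03 and 40.4 TPM, 1.15-fold higher in replicate 2, against 1.24-fold with it.

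Several measured values moved with the difference in Tubb3, and their part in it was not tested. Stmn3 differed by 0.80 in log2(TPM + 1). Of the 13 neuronal cytoskeleton genes compared that are not among the 7, Stmn3 included, 10 were higher in replicate 2, with a median difference of 0.13, beside 50.2% of all genes compared. Tubb3 lies inside the annotated span of Gm20388, a readthrough gene on the same strand that was given 0 counts in replicate 1 and 640.36 in replicate 2. The expected counts of Tubb3 itself were whole by the same tolerance in both libraries. In GENCODE M21 its leading transcript shared no 100-base window with another gene. The counts were made on GENCODE M4, so the windows cannot decide on the part of Gm20388, which was not tested.

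**Figure D5:**
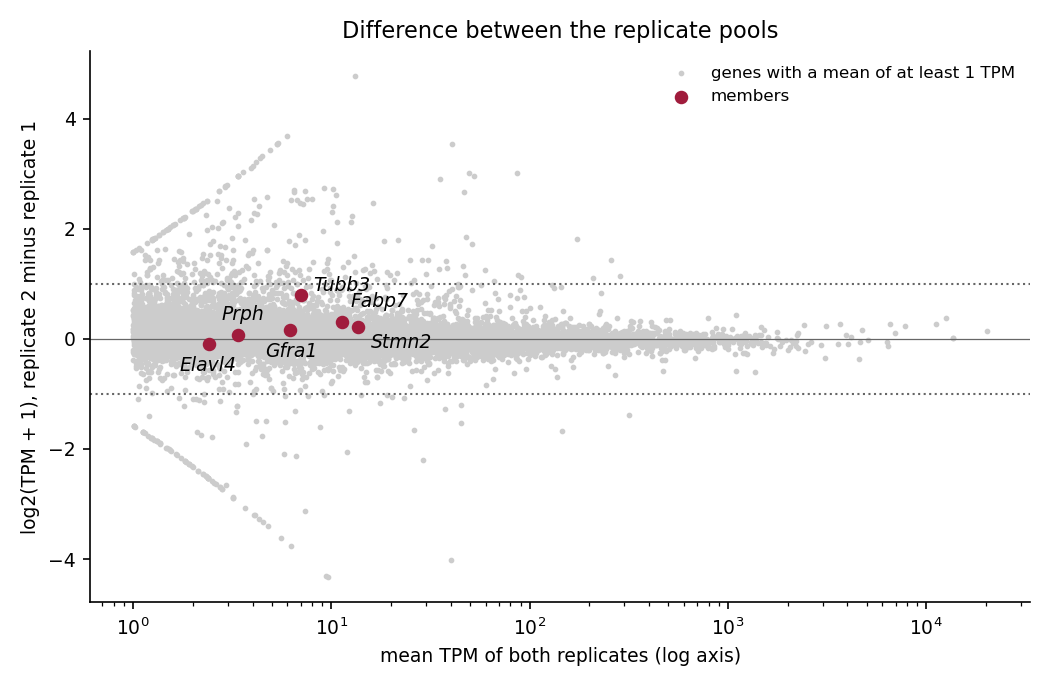
Difference in log2(TPM + 1), replicate 2 minus replicate 1 (vertical axis, 2-fold dotted), against mean TPM (horizontal log axis) for the 15493 genes averaging 1 TPM or more (grey) and the 6 followed genes among them (red). All 6 lie between the dotted lines, with Tubb3 highest at 0.79.

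Markers of other cells and tissues were read in the same libraries, since some share genes with neurons. Of 14 central nervous system genes 1 (Aldh1l1, 1.91 and 2.92 TPM) reached 1 TPM in both replicates, or 7.14%, against 61.5% of protein coding genes. Olig2, Neurod1 and Emx1 had no read in either library, and the list's summed level was 3.55 TPM in the first library and 5.25 TPM in the second. Aldh1l1 alone made the larger part of both sums and of the difference between them. Traces in that list were higher in replicate 2 for genes named here after their values were seen: Neurod6 had 0 and 10 reads, Olig1 had 2 and 14, and Slc17a6 had 4 and 15. Of 12 pulmonary neuroendocrine genes, which mark epithelial cells that also use Uchl1, 6 reached 1 TPM, Nkx2-2 had no read and the summed level was 72.69 and 67.45 TPM. Tissue lists with no neuronal genes also differed between the pools. The summed level of 8 liver genes was 52.7 and 450.2 TPM, that of 8 genes of oesophagus and skeletal muscle 108 and 366 TPM, and that of 8 thymus genes 22.76 and 56.79 TPM. The summed level of the 8 heart genes went the other way, at 1382 and 1214 TPM, though only 5 of them were lower in replicate 2 and 3 were higher. The 10 genes of mesenchyme and smooth muscle summed to 1460 and 1393 TPM, with 5 higher and 5 lower in replicate 2. Whether these tissues contributed RNA of Tubb3 or of the other 6 genes was not tested.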

How the data were processed

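Per the labels, extraction used the Ambion mirVana method, each library was made from 10 ng of RNA above 200 nt with spike-ins, and a SMARTer low-input manual is linked. The authors deposited, per library, tables of genes and transcripts on mm10 with GENCODE M4, per the notes among the deposited files. The aligner and quantifier are not given in the sources used here. Expected counts, per the file headers, are estimated reads per gene or transcript. TPM, as deposited, is corrected for effective length and has the same total in every library, with spike-ins counted in. FPKM values deposited beside them divide by length and assigned reads. The score columns deposited are bounds of a credibility interval, whose level is not stated, and were not used for any count. The percent columns deposited give a transcript's share of its gene. Spike-in rows held 2.30% and 2.32% of the expected counts.

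Symbols, coordinates and sequences came from GENCODE M21 (mm10), matched by gene identifier without version, for 42462 of 43346 gene rows. There is 1 group of 2 libraries, so no p-value was computed. Differences between replicates used log2(TPM + 1) and genes averaging 1 TPM or more. Counting intervals are exact Poisson intervals at 95%, and the limit of a count of 0 is 3 counts. The members and the 22 gene lists (185 genes) were chosen with earlier results of these data known. Named were the members, all genes of the GDNF and endothelin lists, both genes of 24 ratios fixed by function, and of each other list the 4 highest, those at 0 in both replicates and those past 2-fold that average 1 TPM or more. A few listed genes are not reported here. Transcripts named are the leading one of each member and others with at least 10% of the gene. Alternatives were the posterior mean, FPKM, edgeR 4.0.16 TMM factors and DESeq2 1.42.0 size factors (R 4.3.3) on expected counts per length, TPM without spike-ins or without globin and mitochondrial genes, other thresholds and pseudocounts, and single libraries. For both tools expected counts were rounded to whole numbers. The calculations were tested on simulated data, with Python 3.11.15, pandas 2.3.3 and SciPy 1.17.1.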

Additional observations from a re-analysis of the deposited data

How the results depend on the processing

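The 7 genes kept 6 at 1 TPM or more under the posterior mean, FPKM, TMM factors, DESeq2 size factors, TPM without spike-ins, TPM without globin and mitochondrial genes, a threshold of 2 TPM and each library alone (6 to 6), and 7 passed at 0.5 TPM. Of the 185 listed genes 109 passed, from 90 to 136 over the alternatives and from 115 to 121 with each replicate alone. The 18 ordered pairs became 14 where expected counts were not divided by length, and 17 with a pseudocount of 1 TPM. The 19 of 24 ratios that held became 20 with the posterior mean or without the division by length. Leaving out that division reversed Fabp7 over Gfra1 (log2 ratio -1.50), Elavl4 over Ret (-0.58) and Prph over Nefm (-0.39). Single ratios kept their call in 479 of 495 repeats, but most of these repeats could not change it. Settings that rescale a whole library cancel within a ratio. A ratio that held has the same sign in each library alone. The calls that did change came from the posterior mean, the missing division by length or the pseudocount of 1 TPM. No member differed 2-fold between replicates under any alternative run, while the share over all genes ranged from 1.18% to 4.25%. A transcript of at least 50% led in 6 members, in 5 by posterior mean shares, and in 6 to 6 with each replicate alone. Single ratios were also taken in each library alone, where they have no SD, so the counts of orders and ratios that held have no value with 1 library left out. No paired analysis was possible because the series holds a single group. Depth limits the Elavl4 transcripts and genes of a few reads, such as Gdnf and Pspn, and 2 pools give only a rough spread.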

Other observations

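Genes of transmitter phenotype were scarce beside the structural neuronal genes. Of 17 such genes 5, or 29.4%, reached 1 TPM in both replicates, against 61.5% of protein coding genes. The highest were Ddc (13.38 and 14.86 TPM), the decarboxylase of amine synthesis, Slc18a2 (4.77 and 4.91 TPM), the vesicular monoamine transporter, Calca (3.39 and 3.44 TPM), which encodes calcitonin gene related peptide, and Gal (1.19 and 2.64 TPM), which encodes galanin. Airway ganglion neurons are known to be cholinergic, so the cholinergic genes are given here as well, chosen after their values were seen. Chat, the enzyme of acetylcholine synthesis, had 3 reads in replicate 1 and none in replicate 2. The vesicular transporter Slc18a3 had 34 and 27 reads, or 0.56 and 0.63 TPM, and the choline transporter Slc5a7 had 55 and 46 reads, or 0.41 and 0.49 TPM. These 3 genes lay below Prph, Stmn2 and Tubb3 in both libraries. Ache, the enzyme that breaks down acetylcholine, reached 1 TPM in both, at 1.60 and 2.13 TPM from 90 and 86 reads.

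Among neurotrophins and their receptors 6 of 9 genes, or 66.7%, reached 1 TPM in both replicates, which is near the 61.5% of protein coding genes. Ngfr, the shared low-affinity receptor found on crest cells and glia, stood at 3.62 and 3.81 TPM, near Prph. Ntf3 stood at 2.87 and 2.71 TPM, Ntf5 at 2.49 and 2.84 TPM and Ntrk2, a receptor of Ntf5, at 1.49 and 1.83 TPM. None of the 6 genes of that list averaging 1 TPM or more differed 2-fold between the pools, which is near the share of 2.67% over all genes compared and is no result about the list.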
